A study of Homo sapiens with 12 samples.

Results

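The comparison described here is the addition of DOC to silver nanoparticles (AgNPs) in PC3 cells: 3 libraries of cells given both agents (the group labelled COM) were set against 3 libraries of cells given silver nanoparticles only (the group AgNPs). Its members are all genes of the deposited transcript table. Circular transcripts were left out, and the read counts of the remaining 177700 of 221796 rows were summed by gene identifier to 43613 genes, of which 19986 passed a filter on low counts and were tested. The series holds 12 libraries in 4 groups of 3. The group BLANK received PBS, the group DOC received DOC without nanoparticles, and all 4 groups are PC3 cells labelled as wild type. PC3 is an established line from a human prostate cancer metastasis that grows without androgen. The labels give no dose, exposure time, particle size, culture number or batch, and they do not spell out what DOC stands for. Nothing in them says that the 3 libraries of a group were grown apart. The p-values below therefore rest on library-to-library spread alone, and part or all of it may be technical.

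Silver nanoparticles release silver ions, which bind thiol groups of proteins and glutathione. Cells are known to answer thiol and oxidative stress through the transcription factor NRF2, which drives antioxidant and iron-handling genes, and to answer many kinds of protein and nutrient stress through phosphorylation of the initiation factor eIF2 and the transcription factor ATF4, which drives amino acid transport, amino acid synthesis and stress hormone genes. Metallothioneins are small cysteine-rich proteins that bind metals. Immediate early genes are transcription factors and phosphatases whose mRNAs rise within minutes of a signal and decay fast. Replication-dependent histone mRNAs are made mainly in S phase and end in a stem-loop in place of a poly(A) tail.

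Summed counts were 13049868 to 13362290 per AgNPs library and 10996446 to 11069928 per COM library. The DOC libraries held 18603100 to 19421873 counts and the BLANK libraries 22573481 to 22769479. A count of 3, taken as the limit of detection, corresponds to between 0.225 and 0.230 CPM (counts scaled to the library total) in the AgNPs libraries and 0.271 to 0.273 CPM in the COM libraries. These limits cover counting error only. The share of counts on RefSeq transcripts was 85.7% ± 0.347 (SD, n = 3) in AgNPs and 83.8% ± 0.150 (SD, n = 3) in COM. Of 10 luminal prostate markers, 7 were in the table, and the 3 with levels above 10 CPM in every AgNPs library were HOXB13, SLC45A3 and STEAP2. TMPRSS2 reached at most 0.0758 CPM and FOLH1 0.271 CPM in the 6 libraries. The androgen receptor and the secreted kallikreins KLK2 and KLK3 were not analysed here. Fibroblast markers summed to 95.9 to 108 CPM in AgNPs and 84.2 to 92.1 CPM in COM, with DCN and LUM at or under 0.0909 CPM. COL1A2 made up most of both sums, at 64.7 to 74.4 CPM in AgNPs and 50.3 to 55.4 CPM in COM. Immune and endothelial markers summed to 41.7 to 48.5 CPM in AgNPs and 53.5 to 61.8 CPM in COM, with the leukocyte gene PTPRC at most 0.0909 CPM. CD68, a lysosomal protein, made up most of that sum and rose (log2 difference 0.30, edgeR adjusted p = 0.000493). Fits on counts thinned to the smallest library and on RefSeq rows only are given at the end. Beyond these fits, the part of depth, RefSeq share and these markers in the results was not tested. In bulk RNA, fewer cells in a state and less RNA per cell cannot be told apart.

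Adding DOC to silver nanoparticles moved many genes by small amounts. Most of the tested immediate early genes, ATF4 targets and tubulin genes were called higher. For tubulin genes the count ran from 6 to 10 of 12 over the alternative fits given at the end. All tested replication-dependent histone genes and most DNA replication and ribosome biogenesis genes were called lower. Of the 19986 genes tested, 4369 (21.9%) passed an adjusted p of 0.05 in edgeR's quasi-likelihood test over all 12 libraries. Every adjusted p below is from that test with Benjamini-Hochberg adjustment over all tested genes, and the value after ± beside a log2 difference is its standard error. Of these, 1973 (9.87% of those tested) were higher in COM and 2396 (12%) were lower. The median size of change among called genes was 1.19-fold. A change of 1.5 to 2-fold was seen for 412 called genes and one of at least 2-fold for 171. Those 171 comprised 144 higher genes (0.721% of those tested) and 27 lower ones (0.135%). The counts at 2-fold depended on the tool: DESeq2 gave 32 higher and 5 lower. For 7401 genes (37.0%) the 3 COM libraries did not overlap the 3 AgNPs libraries. The median log2 difference over all tested genes was 0.0079, so rises and falls are read against a centre near 0.

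The share of genes called lower differed between kinds of gene, while the share called higher stayed near the 9.87% of all genes. Of 13056 protein-coding genes, 1356 were higher (10.4%) and 2233 lower (17.1%), with a median log2 difference of -0.025. Of 3752 other RefSeq genes, 324 were higher (8.6%) and 107 lower (2.85%), with a median of 0.098. Of 3178 genes with no RefSeq entry, 293 were higher (9.22%) and 56 lower (1.76%), with a median of 0.14. Only 33 of the 144 genes at least 2-fold higher and 8 of the 27 at least 2-fold lower were protein-coding genes with at least 50% of their counts on RefSeq transcripts. The median of the average level was 4.95 log2 CPM for protein-coding genes and 0.70 log2 CPM for genes with no RefSeq entry. The shift of counts away from RefSeq transcripts noted above moved with this split, and its part in it was not tested.

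Among genes with an average level of at least 1 log2 CPM, mostly on RefSeq rows and without overlap between the groups, the greatest rises were in CMYA5, NR4A2, SDAD1P1, CPA4 and BMF. CMYA5, a muscle-associated protein, was at 1.20, 1.67 and 1.46 CPM in the AgNPs libraries and 3.07, 3.81 and 4.01 CPM in the COM libraries (log2 difference 1.33 ± 0.24, adjusted p = 5.61e-05). The nuclear receptor gene NR4A2 was at 2.48, 1.67 and 1.46 CPM in the AgNPs libraries and 5.87, 4.36 and 3.56 CPM in the COM libraries (log2 difference 1.29 ± 0.24, adjusted p = 9.84e-05). BMF, a pro-apoptotic BCL2 family member, was at 4.21, 4.87 and 4.14 CPM in the AgNPs libraries and 7.50, 9.62 and 9.40 CPM in the COM libraries (log2 difference 1.004 ± 0.15, adjusted p = 4.78e-06). These are low levels, a few CPM in every library. ESRG, a long noncoding RNA gene, was at 57.5, 51.9 and 49.3 CPM in the AgNPs libraries and 95.7, 105 and 109 CPM in the COM libraries (log2 difference 0.96 ± 0.15, adjusted p = 0.00203). ATF3, CHAC1, DDIT4 and ZFP36, also among the 15 greatest rises, are described below. Of the 15, 1 lost its call when a library was left out: MYOM1, at 0.94, had an adjusted p of 0.0535 without COM replicate 3. The greatest falls were in GLB1L2 (log2 difference -1.25 ± 0.30, adjusted p = 0.00137) and ACTL10 (log2 difference -1.01 ± 0.28, adjusted p = 0.00597). GLB1L2, a beta-galactosidase-like gene, was at 2.48, 2.43 and 2.22 CPM in the AgNPs libraries and 0.361, 1.36 and 1.28 CPM in the COM libraries. Of the 15 greatest falls, 4 were histone genes. Another 8, with AgNPs means of 2.33 to 4.15 CPM, lost their call when some single library was left out, and they are not described further. PIF1, a DNA helicase, kept its call in every such fit (log2 difference -0.77 ± 0.16, adjusted p = 0.000333).

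**Figure D1:**
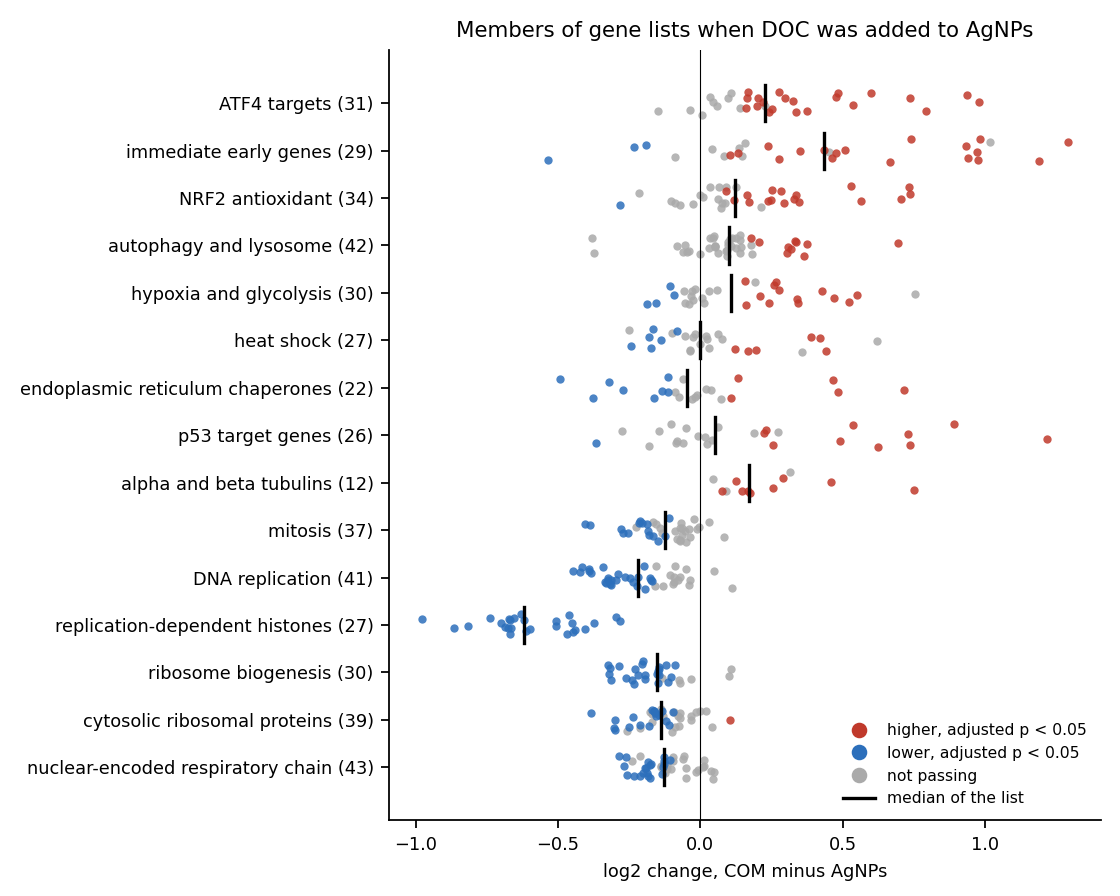
Each point is 1 tested gene of a list, placed by its log2 change from AgNPs to COM. Red and blue points passed an adjusted p of 0.05, grey points did not, black bars are list medians, and the number tested is in brackets. All 27 histone genes lie left of 0, while 21 of 31 ATF4 targets are red and none is blue.

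Immediate early genes were among the most raised lists. Of 29 tested, 18 were higher in COM, 3 were lower and 8 did not pass (median log2 difference 0.43). Over all genes 9.87% were higher and 12% lower. ATF3, a stress-induced transcription factor (chromosome 1, 212565407 to 212620777 in RefSeq on GRCh38.p14), was at 59.2, 56.7 and 53.5 CPM in the AgNPs libraries and 108, 115 and 112 CPM in the COM libraries. The change was 1.98-fold (log2 difference 0.98 ± 0.048, adjusted p = 3.27e-17). ZFP36, which marks AU-rich mRNAs for decay, was at 17.8, 15.9 and 14.5 CPM in the AgNPs libraries and 32.9, 31.9 and 30.02 CPM in the COM libraries (log2 difference 0.98 ± 0.092, adjusted p = 4.85e-10). FOSB, an AP-1 subunit, was at 3.30, 3.88 and 4.44 CPM in the AgNPs libraries and 7.50, 7.89 and 7.39 CPM in the COM libraries (log2 difference 0.97 ± 0.16, adjusted p = 1.66e-05). FOS itself was at 8.04, 6.92 and 7.28 CPM in the AgNPs libraries and 15.1, 12.7 and 14.7 CPM in the COM libraries (log2 difference 0.93 ± 0.13, adjusted p = 9.23e-07). The groups did not overlap for these 3 genes, nor for 37.0% of all tested genes. No overlap was also a condition for the 15 greatest rises, so it adds no support for ATF3 or ZFP36. The AP-1 subunit JUNB (log2 difference 0.43 ± 0.042, adjusted p = 1.15e-09) and IER3, an early response gene (log2 difference 0.51 ± 0.046, adjusted p = 1.79e-10), rose by less. DUSP1, a MAP kinase phosphatase, was at 32.3, 38.7 and 35.4 CPM in the AgNPs libraries and 55.5, 55.3 and 58.1 CPM in the COM libraries (log2 difference 0.67 ± 0.067, adjusted p = 2.69e-09). The 3 lower members, named after their values were seen because they are so few, were the phosphatase genes DUSP2 and DUSP6 and the growth gene MYC, at log2 differences of -0.54, -0.19 and -0.23. Without COM replicate 1 only 1 immediate early gene was lower.

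Most ATF4 targets were higher. Of 31 tested, 21 were higher, 0 were lower and 10 did not pass, against 9.87% higher and 12% lower over all genes. The median log2 difference was 0.23. At an unadjusted p under 0.05, 1 was lower, and DESeq2 gave 21 higher and 0 lower. ATF4 itself was higher by 0.22 and ASNS, asparagine synthetase, by 0.33 on the log2 scale, both named after their values were seen. CHAC1, which degrades glutathione (chromosome 15, 40953471 to 40956512 in RefSeq on GRCh38.p14), was at 30.7, 31.7 and 27.1 CPM in the AgNPs libraries and 63.2, 59.1 and 54.2 CPM in the COM libraries. That is 1.97-fold (log2 difference 0.98 ± 0.073, adjusted p = 2.25e-12). DDIT4, an inhibitor of the growth kinase mTORC1 (chromosome 10, 72273924 to 72276036 in RefSeq on GRCh38.p14), was at 92.97, 94.6 and 100.4 CPM in the AgNPs libraries and 185, 182 and 185 CPM in the COM libraries (1.91-fold, log2 difference 0.94 ± 0.044, adjusted p = 1.92e-17). SESN2, another mTORC1 inhibitor and antioxidant protein, was at 98.8, 105 and 96.7 CPM in the AgNPs libraries and 163, 169.9 and 167 CPM in the COM libraries (log2 difference 0.74 ± 0.043, adjusted p = 3.34e-15). The 3 libraries of each group lay close together for these genes. For CHAC1 and DDIT4, no overlap between the groups was a condition of their selection. STC2, a secreted glycoprotein, was at 262, 266 and 262 CPM in the AgNPs libraries and 369.7, 365 and 364 CPM in the COM libraries (log2 difference 0.48 ± 0.03, adjusted p = 3.39e-14). The gene of the pro-death factor CHOP, DDIT3, was at 21.2, 21.8 and 20.5 CPM in the AgNPs libraries and 28.6, 28.5 and 31.8 CPM in the COM libraries (log2 difference 0.48 ± 0.078, adjusted p = 1.74e-05). Among the members that did not pass were the serine and one-carbon enzyme genes PHGDH, PSAT1, PSPH, SHMT2 and MTHFD2, at log2 differences of 0.046, 0.0072, -0.15, 0.059 and 0.035, named after their values were seen. Cytosolic aminoacyl-tRNA synthetases, which load amino acids on tRNAs and several of which ATF4 also drives, gave 4 of 20 higher and 6 lower (median -0.05). Over all genes 9.87% were higher and 12% lower. The lower count was 3 without COM replicate 3 and 3 on RefSeq rows only. SARS1 (log2 difference 0.22 ± 0.034, adjusted p = 1.04e-05) and WARS1 (log2 difference 0.18 ± 0.029, adjusted p = 1.07e-05) were higher, and VARS1 (log2 difference -0.26 ± 0.032, adjusted p = 1.97e-07) and FARSA (log2 difference -0.21 ± 0.032, adjusted p = 7.09e-06) were lower.

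**Figure D2:**
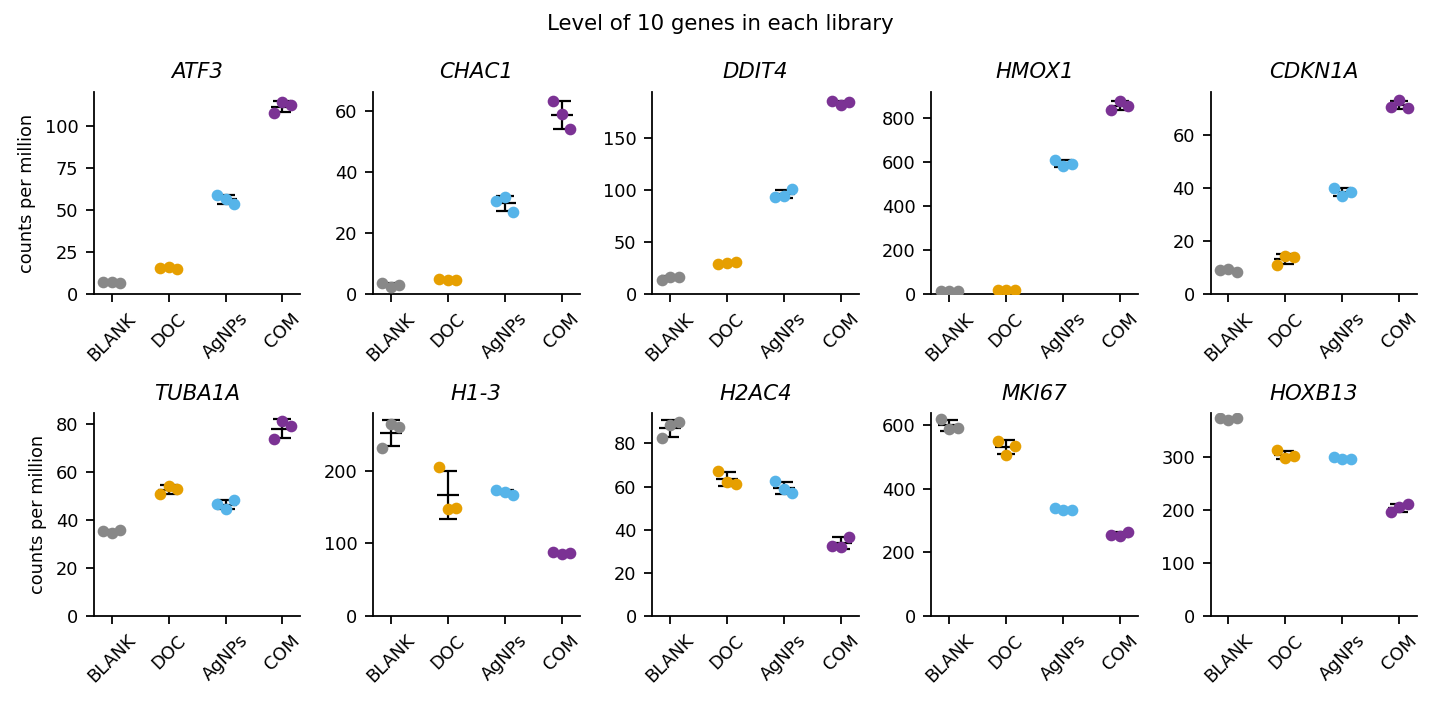
Each point is 1 library, in TMM-scaled CPM on axes that start at 0, and the bars are the mean and SD of the 3 libraries of each group. For the first 6 genes the COM libraries are the highest of the 12, and for the last 4 they are the lowest, as with DDIT4 at 184 CPM and H2AC4 at 33.8 CPM on average in COM.

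NRF2-driven antioxidant genes gave 17 higher, 1 lower and 16 not passing of 34 tested (median log2 difference 0.12). Over all genes 9.87% were higher and 12% lower. The higher count ran from 13 to 19 over the alternative settings, with 13 by DESeq2. HMOX1, which breaks down heme (chromosome 22, 35381096 to 35394207 in RefSeq on GRCh38.p14), was at 610.2, 582 and 590.3 CPM in the AgNPs libraries and 836, 876 and 857 CPM in the COM libraries (1.44-fold, log2 difference 0.53 ± 0.028, adjusted p = 3.38e-16). Its BLANK mean was 14.6 CPM ± 0.669 (SD, n = 3) and its DOC mean 17.5 CPM ± 0.551 (SD, n = 3), so the rise from AgNPs to COM sat on a level already far above that of cells without silver. FTH1, the ferritin heavy chain, was at 5919.5, 5848 and 5564 CPM in the AgNPs libraries and 6805, 6895 and 6758 CPM in the COM libraries (log2 difference 0.24 ± 0.024, adjusted p = 3.47e-09). OSGIN1, an oxidative stress gene, was at 55.5, 55.6 and 53.3 CPM in the AgNPs libraries and 90.7, 88.8 and 88.5 CPM in the COM libraries (log2 difference 0.70 ± 0.052, adjusted p = 1.26e-12). GCLM, the modifier subunit of glutathione synthesis, was at 132, 132 and 129 CPM in the AgNPs libraries and 157, 169 and 167 CPM in the COM libraries (log2 difference 0.33 ± 0.041, adjusted p = 2.04e-07). The 1 lower member was the carbonyl reductase gene CBR1 (log2 difference -0.28), named after its value was seen. Without DOC replicate 1 there were 3 lower, and without DOC replicate 2 or COM replicate 2 there were 2.

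Of 3 metallothionein and zinc exporter genes tested, 2 were higher, against 9.87% of all genes. The metallothionein gene MT2A was at 1373, 1333 and 1277 CPM in the AgNPs libraries and 1339.9, 1446 and 1462 CPM in the COM libraries, and did not pass (log2 difference 0.093 ± 0.06, adjusted p = 0.322). It did pass in the fit without BLANK replicate 1 (adjusted p = 0.0377). MT1X was called at 0.13, but leaving out AgNPs replicate 2 or 3 or COM replicate 2 or 3 gave an adjusted p of 0.065 to 0.0952. Metallothionein genes are near-identical copies, so their counts may be shared among them. The zinc exporter gene SLC30A1 was higher (log2 difference 0.30 ± 0.043, adjusted p = 2.69e-06). Heat shock genes were evenly divided, with 6 of 27 higher, 6 lower and a median of -0.0027, against 9.87% higher and 12% lower over all genes. DNAJB1, an HSP70 cofactor, was at 260.1, 255 and 261 CPM in the AgNPs libraries and 331, 349.6 and 335 CPM in the COM libraries (log2 difference 0.39 ± 0.031, adjusted p = 8.23e-12), while the mitochondrial chaperonin gene HSPD1 was lower (log2 difference -0.17 ± 0.03, adjusted p = 3.76e-05). HSPA6, a strictly stress-inducible HSP70, was at 12.2, 13.5 and 13.02 CPM in the AgNPs libraries and 12.5, 9.71 and 10.4 CPM in the COM libraries and did not pass (log2 difference -0.25 ± 0.13, adjusted p = 0.182). HSPB8 was called (log2 difference 0.44 ± 0.06, adjusted p = 9.74e-07) but not when RefSeq rows alone were counted (adjusted p = 0.237). Endoplasmic reticulum genes also went both ways, with 5 of 22 higher and 8 lower (median -0.046), against the same shares of all genes. The higher count was 3 without AgNPs replicate 1 or 2 or COM replicate 3 and 3 with DESeq2. HERPUD1, which serves degradation of misfolded proteins, was at 86.4, 88.2 and 85.03 CPM in the AgNPs libraries and 118, 119 and 121 CPM in the COM libraries (log2 difference 0.47 ± 0.041, adjusted p = 1.42e-10). DNAJB9 (log2 difference 0.71 ± 0.13, adjusted p = 5.46e-05) and the stress sensor gene ERN1 (log2 difference 0.48 ± 0.074, adjusted p = 6.89e-06) were higher, and the folding enzyme gene PDIA4 was lower (log2 difference -0.27 ± 0.033, adjusted p = 1.22e-07).

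Of 30 replication-dependent histone genes in the table, 27 were tested and all 27 of these were lower, against 12% of all genes. The groups did not overlap in any of the 27, against 37.0% of all tested genes without overlap. The median log2 difference was -0.62 and the range -0.98 to -0.28. This count was 27 in each of the 21 alternative settings, with medians of -0.64 to -0.59. The summed level of the list was 3351, 3326 and 3224 CPM in the AgNPs libraries and 2199, 2217 and 2197 CPM in the COM libraries. Medians by class were -0.67 for 3 linker H1 genes, -0.69 for 6 H2A genes, -0.47 for 11 H2B genes, -0.65 for 3 H3 genes and -0.42 for 4 H4 genes. Histone genes are near-identical copies, so the value of a single one is uncertain. The linker histone gene H1-3 was at 174, 172 and 168 CPM in the AgNPs libraries and 88.6, 85.6 and 86.4 CPM in the COM libraries (log2 difference -0.98 ± 0.14, adjusted p = 0.00139). H2AC4 was at 62.5, 58.9 and 57.1 CPM in the AgNPs libraries and 32.6, 32.03 and 36.8 CPM in the COM libraries (log2 difference -0.82 ± 0.061, adjusted p = 1.44e-12). H2AC6 was at 106, 107 and 107 CPM in the AgNPs libraries and 64.6, 65.1 and 67.8 CPM in the COM libraries (log2 difference -0.70 ± 0.043, adjusted p = 1.31e-14). H2AC13 was at 137, 139 and 148 CPM in the AgNPs libraries and 78.2, 76.9 and 77.4 CPM in the COM libraries (log2 difference -0.86 ± 0.071, adjusted p = 1.35e-06), and H2BC17 was at 124, 116 and 114 CPM in the AgNPs libraries and 71.1, 75.9 and 74.4 CPM in the COM libraries (log2 difference -0.68 ± 0.046, adjusted p = 1.53e-13). In every one of these 5 genes each COM library lay below each AgNPs library. No overlap was a condition for the 15 greatest falls, so it adds no support for the histone genes among them.

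The histone genes also share their place and their promoter letters. Of the 27, 24 lie on chromosome 6 between 26031589 and 27893891 and 3 on chromosome 1 between 149782689 and 149886682 (RefSeq, GRCh38.p14). The promoters of 4 of them are printed because members that fell together can be compared there, beside those of CHAC1 and DDIT4, which rose. Each run is the 120 bases before the annotated start, 5′ to 3′ on the gene's strand, from RefSeq on GRCh38.p14. Capitals mark a CCAAT box (CCAAT, or ATTGG where it is on the opposite strand), a TATA box (TATAAA) or a cAMP response element partial site (TGACG, or CGTCA on the opposite strand).
H2AC4 (chr6:26033619-26033738, minus strand): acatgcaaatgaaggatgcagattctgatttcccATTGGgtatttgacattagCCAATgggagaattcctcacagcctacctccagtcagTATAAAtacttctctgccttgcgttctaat
H2AC6 (chr6:26124052-26124171, plus strand): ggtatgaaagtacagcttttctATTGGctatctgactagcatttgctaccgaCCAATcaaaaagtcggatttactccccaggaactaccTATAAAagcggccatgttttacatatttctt
H2AC13 (chr6:27808053-27808172, plus strand): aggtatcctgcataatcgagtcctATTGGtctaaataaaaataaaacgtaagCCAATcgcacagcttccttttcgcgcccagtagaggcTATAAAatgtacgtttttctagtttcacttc
H2BC17 (chr6:27893305-27893424, plus strand): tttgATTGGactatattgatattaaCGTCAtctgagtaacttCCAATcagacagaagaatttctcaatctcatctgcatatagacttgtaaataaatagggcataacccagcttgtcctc
CHAC1 (chr15:40953351-40953470, plus strand): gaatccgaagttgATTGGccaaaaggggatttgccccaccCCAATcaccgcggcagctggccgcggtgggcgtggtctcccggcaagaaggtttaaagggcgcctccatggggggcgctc
DDIT4 (chr10:72273804-72273923, plus strand): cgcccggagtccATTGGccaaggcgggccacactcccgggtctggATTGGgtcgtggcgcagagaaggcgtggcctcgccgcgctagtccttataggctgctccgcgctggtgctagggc
H2AC4, H2AC6 and H2AC13 each hold a CCAAT box on the gene's strand 67, 68 and 68 bases before the start, another on the opposite strand further out, and a TATA box 30, 31 and 31 bases before the start. H2BC17 holds both CCAAT boxes and a partial site and has no exact TATAAA in this stretch. CHAC1 and DDIT4 each hold 2 CCAAT boxes and no exact TATA box here. In the 250 bases before the start, searched on both strands, a CCAAT box was found for 23 of the 26 histone genes with a promoter in the table (88.5%), against 33.0% of all 27305 promoters. TATAAA was found for 19 of the 26 (73.1%, against 11.1% of all) and the partial site for 17 (65.4%, against 21.7%). Among the tested genes with a promoter the shares were 34.6% for CCAAT, 6.49% for TATAAA and 28.1% for the partial site. The partial site was also found for 11 of 21 immediate early genes (52.4%), a list that mostly rose. The AP-1 site TGACTCA was found for 0 of the 26 and for 4.16% of all. For mitosis genes the CCAAT box was found in 26 of 31 (83.9%), and for ATF4 targets in 13 of 23 (56.5%). TGACTCA and TGACG share their first letters, but the same stretch cannot match both from the same base. These are matches of letters and were read as descriptions only.

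DNA replication genes gave 26 of 41 lower and 0 higher (median log2 difference -0.22), against 12% of all genes lower and 9.87% higher. At an unadjusted p under 0.05 or by DESeq2, 0 were higher. MCM5, a subunit of the replicative helicase, was at 80.4, 80.8 and 79.3 CPM in the AgNPs libraries and 60.8, 59.3 and 59.3 CPM in the COM libraries (log2 difference -0.42 ± 0.046, adjusted p = 1.18e-08). MCM3 (log2 difference -0.39 ± 0.046, adjusted p = 5.44e-07) and MCM7 (log2 difference -0.32 ± 0.037, adjusted p = 4.32e-08), other subunits of that helicase, were lower as well, as were the flap nuclease gene FEN1 (log2 difference -0.39 ± 0.048, adjusted p = 2.54e-07) and the polymerase gene POLD1 (log2 difference -0.39 ± 0.045, adjusted p = 6.24e-08). PCNA, the sliding clamp, was at 84.6, 82.9 and 87.1 CPM in the AgNPs libraries and 73.7, 76.3 and 75.6 CPM in the COM libraries (log2 difference -0.17 ± 0.043, adjusted p = 0.00304). Homologous recombination and Fanconi repair genes gave 9 of 19 lower and 0 higher (median -0.16), against the same shares of all genes. The lower count was 14 in the fit of the 6 AgNPs and COM libraries, 7 on RefSeq rows only or without AgNPs replicate 1, and 6 with DESeq2. Mitosis genes gave 15 of 37 lower and 0 higher (median -0.12), against the same shares of all genes. The lower count ran from 11 to 18 over the alternative settings and was 12 with DESeq2. For both lists the unadjusted test and DESeq2 also gave 0 higher. MKI67, the proliferation marker, was at 339, 333 and 334 CPM in the AgNPs libraries and 253, 251 and 265 CPM in the COM libraries (log2 difference -0.39 ± 0.033, adjusted p = 5.05e-11), and CENPF, a kinetochore protein, was at 290.2, 289 and 291 CPM in the AgNPs libraries and 224, 213 and 221 CPM in the COM libraries (log2 difference -0.40 ± 0.036, adjusted p = 2.89e-10). TOP2A, which untangles chromosomes, was at 193, 205 and 203 CPM in the AgNPs libraries and 163, 163 and 168 CPM in the COM libraries (log2 difference -0.28 ± 0.034, adjusted p = 1.11e-07). In these 3 genes the groups were apart, by a factor of 1.31, 1.32 and 1.21. CCNB1, the mitotic cyclin, was called at -0.17 but not without AgNPs replicate 1 (adjusted p = 0.0521). AURKA, AURKB and CCNB2 did not pass, at log2 differences of -0.053, 0.082 and 0.031, and were named after their values were seen.

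Cyclins and CDK inhibitors went both ways. Of 16 tested, 3 were higher and 4 lower, against 9.87% and 12% of all genes. CDKN1A, the CDK inhibitor p21, was at 39.8, 36.8 and 38.4 CPM in the AgNPs libraries and 70.5, 72.9 and 69.9 CPM in the COM libraries (1.85-fold, log2 difference 0.89 ± 0.063, adjusted p = 4.25e-13). CCNG2, an atypical cyclin of arrested cells, was at 5.93, 7 and 7.20 CPM in the AgNPs libraries and 13.2, 11.9 and 12.8 CPM in the COM libraries (log2 difference 0.91 ± 0.12, adjusted p = 6.86e-07). CCND1, the G1 cyclin, was at 476, 462 and 469.7 CPM in the AgNPs libraries and 407, 395 and 409 CPM in the COM libraries (log2 difference -0.22 ± 0.027, adjusted p = 1.81e-07). Of 12 cell cycle transcription factors, 6 were lower and 2 higher, against 12% and 9.87% of all genes. E2F1 (log2 difference -0.26 ± 0.06, adjusted p = 0.0012) and MYBL2 (log2 difference -0.21 ± 0.036, adjusted p = 5e-05), activators of S phase and mitosis genes, were lower, and E2F7, a repressor, was higher (log2 difference 0.27 ± 0.036, adjusted p = 6.61e-07). PC3 cells lack functional p53. Of 26 genes known as p53 targets, 10 were higher and 1 lower (median 0.05), against 9.87% and 12% of all genes. GDF15, a secreted stress hormone, was at 271, 258 and 258 CPM in the AgNPs libraries and 412, 402 and 399.8 CPM in the COM libraries (log2 difference 0.62 ± 0.033, adjusted p = 3.38e-16), and its mean was 9.45 CPM ± 0.618 (SD, n = 3) in BLANK and 24.8 CPM ± 1.498 (SD, n = 3) in DOC. The 1 lower target was the nuclease gene AEN (-0.37), named after its value was seen, and 2 were lower without AgNPs replicate 1 or COM replicate 2.

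Alpha and beta tubulin genes, whose products form microtubules, gave 9 of 12 higher and 0 lower (median log2 difference 0.17). Over all genes 9.87% were higher and 12% lower. The higher count was 6 with DESeq2, with no filter, and without AgNPs replicate 1, 2 or 3 or COM replicate 2. DESeq2 gave 0 lower, and 0 were lower at an unadjusted p under 0.05. Their summed level was 5986, 5952 and 5994 CPM in AgNPs and 6362, 6574 and 6531 CPM in COM. TUBA1A was at 46.5, 44.4 and 48.3 CPM in the AgNPs libraries and 73.5, 81.4 and 79.1 CPM in the COM libraries (1.68-fold, log2 difference 0.75 ± 0.051, adjusted p = 1.86e-13). TUBB was at 2020.1, 2041 and 2029 CPM in the AgNPs libraries and 2237, 2326 and 2281 CPM in the COM libraries (log2 difference 0.17 ± 0.025, adjusted p = 4.55e-06). TUBB2A (log2 difference 0.46 ± 0.088, adjusted p = 0.000172) and TUBB3 (log2 difference 0.29 ± 0.044, adjusted p = 5.94e-06) also rose. The 3 members that did not pass were TUBA1B (0.046), TUBB2B (0.092) and TUBA8 (0.32), given as log2 differences and named after their values were seen. Tubulin genes share long stretches of sequence, so reads may be divided among them. Of 16 microtubule regulators, 5 were lower and 0 higher, against 12% and 9.87% of all genes. Among the 5 were TBCD, a tubulin folding cofactor (log2 difference -0.34 ± 0.043, adjusted p = 1.95e-07), and KIF2C, a microtubule depolymerase (log2 difference -0.20 ± 0.049, adjusted p = 0.00215).

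Ribosome biogenesis genes gave 24 of 30 lower and 0 higher (median log2 difference -0.15, 1 higher at an unadjusted p under 0.05, 22 lower and 0 higher by DESeq2), with MYBBP1A (log2 difference -0.32 ± 0.035, adjusted p = 2.08e-08) and BOP1 (log2 difference -0.29 ± 0.035, adjusted p = 1.82e-06) among the lower ones. Over all genes 12% were lower and 9.87% higher, and the other lists here are read against these shares. Cytosolic ribosomal proteins gave 18 of 39 lower and 1 higher (median -0.14, 20 not passing), RPL3 being at 772, 774 and 799 CPM in the AgNPs libraries and 669, 651 and 652 CPM in the COM libraries (log2 difference -0.25 ± 0.033, adjusted p = 1.19e-06). Over the alternative settings the number of lower ribosomal protein genes ran from 15 to 30, with 28 without DOC replicate 1. The 1 higher gene lost its call without AgNPs replicate 2 or 3 or COM replicate 2. Of 35 mitochondrial ribosomal proteins 18 were lower, and of 43 nuclear-encoded respiratory chain genes 21 were lower (medians -0.13 and -0.13). MRPL12 (log2 difference -0.34 ± 0.042, adjusted p = 1.9e-07) and CYC1, cytochrome c1 (log2 difference -0.23 ± 0.027, adjusted p = 4.33e-08), are examples. Of 33 proteasome genes, 7 were lower, against 12% of all genes. This count was 3 without AgNPs replicate 3, 4 without AgNPs replicate 2 or COM replicate 2 or 3, 4 with the replicate number as a block, and 3 on RefSeq rows only or with limma on FPKM. Fatty acid synthesis genes gave 5 of 10 lower and 1 higher, a call lost without any 1 of the 6 AgNPs and COM libraries, with FASN, fatty acid synthase, at 679.6, 687 and 689 CPM in the AgNPs libraries and 531, 534 and 526 CPM in the COM libraries (log2 difference -0.37 ± 0.027, adjusted p = 8.34e-13). Sterol synthesis genes gave 2 of 24 higher and 2 lower, against 9.87% higher and 12% lower over all genes. Leaving out AgNPs replicate 2 gave 0 higher, AgNPs replicate 1 or COM replicate 1, 2 or 3 gave 1 higher, and AgNPs replicate 3 or COM replicate 1 or 3 gave 1 lower. Of 15 SR splicing factors and their kinases, 5 were lower and 1, CLK1, was higher (log2 difference 0.45 ± 0.065, adjusted p = 2.35e-06). Of 18 snoRNA host genes, 0 passed in edgeR and 0 in DESeq2, while 2 were higher and 4 lower at an unadjusted p under 0.05. Without DOC replicate 1, 2 passed as higher and 3 as lower. Of 4 nuclear-retained RNAs, 3 were higher, with NEAT1, the scaffold of paraspeckles, at 4560.2, 4584 and 4497 CPM in the AgNPs libraries and 6662, 6642 and 6458 CPM in the COM libraries (log2 difference 0.53 ± 0.028, adjusted p = 1.4e-15).

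Genes of autophagy and lysosomes gave 10 of 42 higher and 0 lower (median log2 difference 0.10), against 9.87% and 12% of all genes. At an unadjusted p under 0.05, 19 were higher and 0 lower, and DESeq2 gave 10 and 0. The fit of the 6 AgNPs and COM libraries gave 18 higher, and RefSeq rows only gave 16. SQSTM1, the autophagy receptor p62, was at 427, 424 and 427 CPM in the AgNPs libraries and 527, 541 and 545 CPM in the COM libraries (log2 difference 0.34 ± 0.029, adjusted p = 8.3e-11). GABARAPL1, an autophagosome protein, was at 23.4, 25.3 and 24.4 CPM in the AgNPs libraries and 40.3, 38.02 and 39.9 CPM in the COM libraries (log2 difference 0.70 ± 0.076, adjusted p = 1.46e-08). Hypoxia and glycolysis genes gave 13 of 30 higher and 4 lower (median 0.11), against the same shares of all genes. VEGFA, the vessel growth factor, was at 102, 100.4 and 99.7 CPM in the AgNPs libraries and 149, 130.4 and 139 CPM in the COM libraries (log2 difference 0.47 ± 0.043, adjusted p = 3.81e-10), and SLC2A1, the glucose carrier GLUT1, was at 107, 108 and 109.9 CPM in the AgNPs libraries and 143, 150.0 and 144 CPM in the COM libraries (log2 difference 0.43 ± 0.04, adjusted p = 6.51e-10). The higher members were target genes such as NDRG1 (log2 difference 0.52 ± 0.028, adjusted p = 3.38e-16) and ADM (log2 difference 0.55 ± 0.057, adjusted p = 4.64e-09). The 4 lower members, PFKP, PGAM1, TPI1 and ENO1, are glycolytic enzyme genes, at log2 differences of -0.19, -0.16, -0.11 and -0.093, and were named after their values were seen.

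Cell death and inflammation genes changed in part. Of 18 pro-apoptotic BCL2 family and caspase genes, 4 were higher and 0 lower, against 9.87% and 12% of all genes. Log2 differences were positive for 9 of the 18 and negative for 9 (median 0.026). The 4 were the BH3-only genes BMF, BBC3, PMAIP1 and BCL2L11. PMAIP1 was at 42.7, 43.2 and 45.5 CPM in the AgNPs libraries and 58.5, 64.2 and 61.96 CPM in the COM libraries (log2 difference 0.49 ± 0.061, adjusted p = 2.04e-07) and BCL2L11 at 22.98, 24.2 and 24.8 CPM in the AgNPs libraries and 28.5, 30.04 and 30.3 CPM in the COM libraries (log2 difference 0.30 ± 0.07, adjusted p = 0.0015). BBC3 (log2 difference 0.73 ± 0.20, adjusted p = 0.0057) was not called on RefSeq rows alone (adjusted p = 0.406). Of the 6 caspase genes tested, 0 passed in edgeR. Of 9 anti-apoptotic genes, 4 were higher and 0 lower, against 9.87% and 12% of all genes. BCL2L1, encoding BCL-xL (log2 difference 0.25 ± 0.041, adjusted p = 1.42e-05), and MCL1 (log2 difference 0.20 ± 0.036, adjusted p = 8.81e-05) were among the 4. Of 9 death receptor and ligand genes, 1 was higher and 2 lower (median -0.038), against the same shares of all genes. The higher gene was the death receptor gene TNFRSF10B (log2 difference 0.22 ± 0.038, adjusted p = 3.52e-05). With DESeq2, without AgNPs replicate 2 or without COM replicate 1, 0 of this list were lower. Of 23 NFkB targets and inflammatory mediators, 6 were higher and 2 lower (median 0.14), against 9.87% and 12% of all genes. The higher count was 3 without COM replicate 2. CXCL8, the neutrophil chemokine, was at 21.1, 19.2 and 20 CPM in the AgNPs libraries and 36.1, 32.6 and 33.03 CPM in the COM libraries (log2 difference 0.75 ± 0.076, adjusted p = 2.83e-09), and IL11, a cytokine, was at 9.91, 10.96 and 9.96 CPM in the AgNPs libraries and 17.5, 16.7 and 18.98 CPM in the COM libraries (log2 difference 0.79 ± 0.10, adjusted p = 3.3e-07). Of 29 interferon response genes, 4 were higher, against 9.87% of all genes, and 2 were lower. Without AgNPs replicate 1 there was 1 higher, and without AgNPs replicate 2 or COM replicate 3 there were 2 higher and 1 lower. Without COM replicate 1 there was 1 lower. Of 8 drug efflux pump genes, 1 was higher, against 9.87% of all genes. This gene, ABCC1 (log2 difference 0.12 ± 0.035, adjusted p = 0.014), lost its call without AgNPs replicate 2 or COM replicate 2 (adjusted p of 0.0874 to 0.183). ABCB1, the multidrug pump, was at 0.601, 0.304 and 0.766 CPM in the AgNPs libraries and 0.813, 1.09 and 1.37 CPM in the COM libraries and did not pass (log2 difference 0.96 ± 0.44, adjusted p = 0.115).

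Prostate, epithelial and matrix genes completed the lists, and their counts are read against 9.87% of all genes higher and 12% lower. HOXB13, a prostate lineage transcription factor (chromosome 17, 48724763 to 48728750 in RefSeq on GRCh38.p14), was at 301, 297 and 296 CPM in the AgNPs libraries and 196, 205 and 212 CPM in the COM libraries (log2 difference -0.54 ± 0.032, adjusted p = 3.26e-15). It was the 1 luminal marker of 4 tested that passed. Of 3 neuroendocrine markers tested, 2 were higher, the enolase gene ENO2 (log2 difference 0.27 ± 0.059, adjusted p = 0.000956) and SYP. SYP reached at most 0.455 CPM in AgNPs and at least 0.814 CPM in COM. The count was 1 without any 1 of the 6 AgNPs and COM libraries, without BLANK replicate 2 or DOC replicate 2 or 3, with the replicate number as a block and with DESeq2. Of 13 epithelial adhesion and keratin genes, 4 were lower and 1 higher, with KRT18 (log2 difference -0.22 ± 0.04, adjusted p = 0.000167) and KRT19 (log2 difference -0.23 ± 0.047, adjusted p = 0.000814) lower. Without COM replicate 1 there were 2 lower. The 1 higher gene, ESRP1, a splicing factor of epithelial cells (log2 difference 0.46 ± 0.14, adjusted p = 0.0137), lost its call without AgNPs replicate 2 or COM replicate 1 or 2 (adjusted p of 0.064 to 0.122) and with DESeq2 (adjusted p = 0.0502). Of 24 mesenchymal and matrix genes, 11 were higher and 6 lower (median 0.12). THBS1, thrombospondin, was at 144, 144 and 143 CPM in the AgNPs libraries and 192, 199 and 198 CPM in the COM libraries (log2 difference 0.45 ± 0.033, adjusted p = 1.44e-12), FN1, fibronectin, was higher (log2 difference 0.46 ± 0.071, adjusted p = 7.5e-06), and the transcription factor gene SNAI1 was higher (log2 difference 0.68 ± 0.099, adjusted p = 2.52e-06). COL1A2, a collagen gene and fibroblast marker, was at 64.96, 65.7 and 74.4 CPM in the AgNPs libraries and 50.3, 55.6 and 50.5 CPM in the COM libraries (log2 difference -0.39 ± 0.063, adjusted p = 5.29e-05). It was the 1 fibroblast marker of 6 tested that passed. Of the 6, 3 had positive and 3 negative log2 differences (median 0.096). Of 25 actin, SRF and YAP target genes, 5 were higher and 4 lower, against 9.87% and 12% of all genes.

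DOC was also given to cells without silver, and DOC against BLANK shares no library with COM against AgNPs. The labels give no dose or exposure time, so it is not known whether the agents were given alike in all groups. In DOC against BLANK, 1430 genes (7.16%) were higher and 1961 (9.81%) lower. Of the genes called higher with AgNPs, 762 were called higher without, which is 38.6% of the 1973 and 53.3% of the 1430, and 14 were called lower. Of the genes called lower with AgNPs, 1320 were called lower without, which is 55.1% of the 2396 and 67.3% of the 1961, and 2 were called higher. The ATF4 targets had a median of 0.0030 without AgNPs, with 8 members higher and 8 lower, against 21 and 0 with AgNPs. The histone median was -0.37 without AgNPs, with 25 of 27 lower. The tubulin median was 0.12 without AgNPs and DNA replication genes had -0.20. DDIT4 changed by 0.94 without and 0.94 with AgNPs on the log2 scale, and TUBA1A by 0.58 and 0.75.

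**Figure D3:**
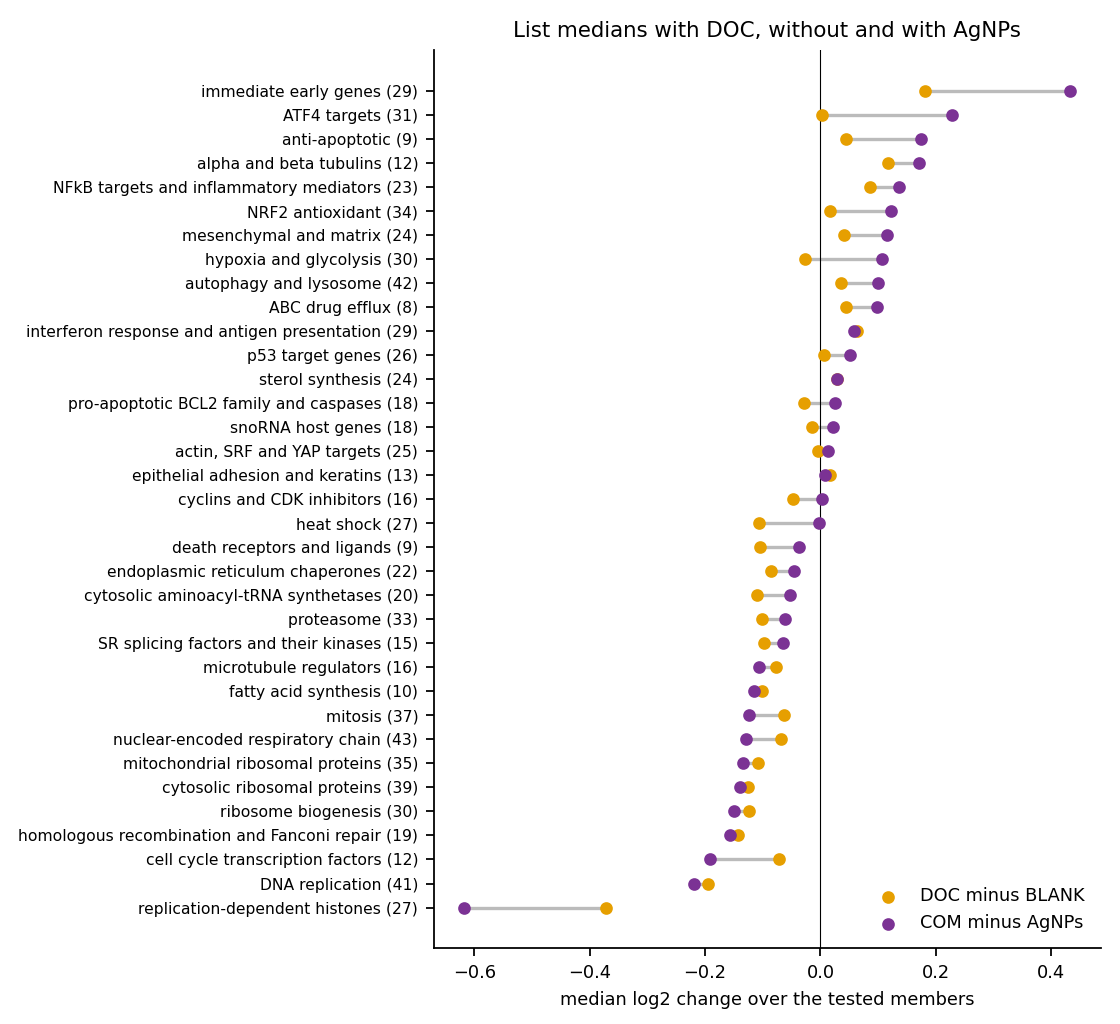
Median log2 change over the tested members of each list with at least 8 tested, for DOC minus BLANK (orange) and COM minus AgNPs (purple). The numbers tested are in brackets. The histone list is lowest in both, at -0.37 and -0.62, and the ATF4 list lies at 0.0030 in one and 0.23 in the other.

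The difference between the 2 effects of DOC was tested as an interaction, COM minus AgNPs less DOC minus BLANK. It passed for 221 genes (1.11%), with 2010 at an unadjusted p under 0.05. The effect of DOC was higher with AgNPs for 146 genes (0.731%) and lower for 75 (0.375%). Of the 146, 128 were called higher with AgNPs, and 96 of those 128 were not called without. Of the 75, 59 were called lower with AgNPs. By list, 14 of 31 ATF4 targets had a higher effect and 0 a lower one, and 10 of 27 histones had a lower effect and 0 a higher one. The higher effects also included 6 of 34 NRF2 genes, 4 of 27 heat shock genes and 4 of 20 tRNA synthetases. Leaving out 1 library of the 12 gave 115 to 269 genes. The count fell by more than 1.5 times in 5 of these fits: 115 genes without AgNPs replicate 2, 119 without COM replicate 2, 131 without AgNPs replicate 3, 136 without COM replicate 3 and 144 without AgNPs replicate 1.

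HERPUD1 was not called without AgNPs (log2 -0.0057, adjusted p = 0.95) and rose by 0.47 with them (interaction 0.47 ± 0.06, adjusted p = 7.5e-06). STC2 (interaction 0.36 ± 0.044, adjusted p = 4.51e-06), SLC2A1 (interaction 0.39 ± 0.055, adjusted p = 2.96e-05), DNAJB1 (interaction 0.32 ± 0.044, adjusted p = 2.22e-05) and SQSTM1 (interaction 0.26 ± 0.042, adjusted p = 0.000328) also had higher effects with AgNPs. GDF15 rose in both settings, by 1.39 without and 0.62 with AgNPs on the log2 scale. On that scale the effect was lower with AgNPs (interaction -0.77 ± 0.073, adjusted p = 3.51e-08), while in CPM the rise of GDF15 was larger with them. Its 3 DOC libraries were at 23.1, 25.8 and 25.6 CPM and its 3 BLANK libraries at 9.86, 9.75 and 8.74 CPM, without overlap. HOXB13 fell in both settings, and further with AgNPs (interaction -0.25 ± 0.043, adjusted p = 0.000497). H2BC17 (interaction -0.35 ± 0.06, adjusted p = 0.000729) and MKI67 (interaction -0.21 ± 0.044, adjusted p = 0.00787) did too. For ATF3, 1.13 without and 0.98 with AgNPs, the interaction did not pass (interaction -0.15 ± 0.092, adjusted p = 0.615), and for DDIT4 the estimate was near 0 (interaction 0.00073 ± 0.077, adjusted p = 0.999). Among BLANK and DOC libraries, BLANK replicate 1 and DOC replicate 1 differed more from their fellows than the others did: chi-square per degree of freedom was 3.50 to 4.81 for pairs with either of them, and 1.46 to 1.99 for all other pairs within a group. For H1-3, DOC replicate 1 was at 205 CPM and the other two at 148 CPM and 149 CPM. Without BLANK replicate 1 the interaction passed for 163 genes, and without DOC replicate 1 it passed for 269.

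**Figure D4:**
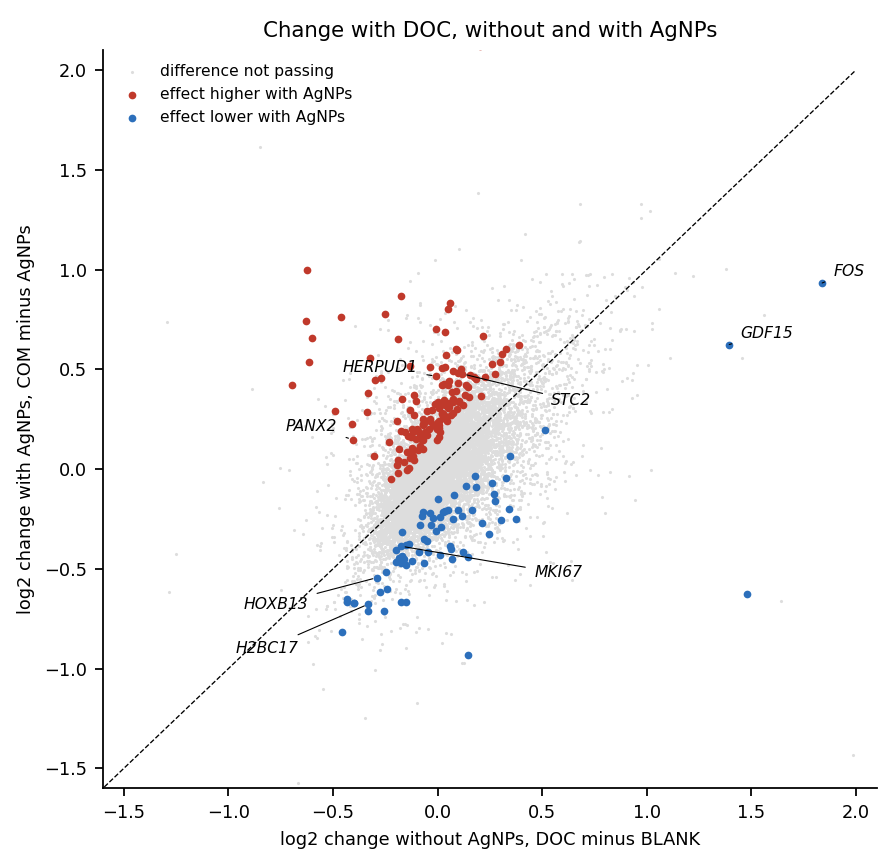
Each point is a gene with an average level of at least 1 log2 CPM, placed by its log2 change with DOC in cells without AgNPs (x axis) and with AgNPs (y axis). Coloured points passed the test of the difference, the dashed line marks equal change, and 9 genes lie outside the axes. GDF15 and FOS lie to the right of the line, HERPUD1 and STC2 above it.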

How the data were processed

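Total RNA of PC3 cells was extracted with TRIzol and made into mRNA libraries with a BGI kit, per the labels' protocols. The deposited table lists 221796 transcripts with an estimated count (expected count) and an FPKM per library, as the authors deposited it. Its header names no unit for the second, which was read as FPKM from its values. The submitters' processing notes name HISAT2, Bowtie2 2.2.5, RSEM and GRCh38, with no step assigned to each. Circular transcripts were left out. Estimated counts of the 177700 linear rows were summed per gene and rounded, and genes with low counts were removed by edgeR's filterByExpr, leaving 19986 of 43613. FPKM values, as deposited by the authors, were used only in an alternative, as log2(FPKM + 1). Levels printed as CPM are counts relative to library totals scaled by TMM factors.

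The main test was edgeR 4.0.16 in R 4.3.3: a robust quasi-likelihood fit of 12 libraries in 4 groups, the contrast of COM with AgNPs, and the interaction with DOC against BLANK, at a Benjamini-Hochberg adjusted p of 0.05. It was tested on simulated counts with planted changes. Depth and the detection limit of 3 counts are given with the results. Alternatives were RLE factors, DESeq2 1.42.0, limma 3.58.1 on FPKM, other filters, RefSeq rows only, thinned counts, a 6-library fit, a replicate block and each library left out.

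Genes named were up to 15 called genes each way by fold change (average level of at least 1 log2 CPM, at least 50% of counts on RefSeq rows, a symbol that is no clone or locus name, no overlap between groups), up to 4 called genes of each of 42 lists by adjusted p, 22 fixed genes whatever their result, and up to 5 each way by the interaction. Others are said to be chosen after their values were seen, or are counted only. The genes, lists and tests were chosen with earlier results of these data known, so no list is independent evidence of its direction. Of 948 list genes, 920 were in the table and 855 were tested. Gene classes, positions, promoters and symbols are from RefSeq (GRCh38.p14).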

Additional observations from a re-analysis of the deposited data

Results flagged for a closer look

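For 35 of the named genes the change brought by DOC differed between cells with and without silver nanoparticles by the test of the difference (edgeR interaction, adjusted p under 0.05). Values are log2 differences of the 2 changes, positive where the change was higher with AgNPs.

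The difference kept its call when any 1 library was left out for 16 genes. Of these, the ones with a higher change with AgNPs were HERPUD1 at 0.47, SLC2A1 at 0.39, STC2 at 0.36, GCLM at 0.34, DNAJB1 at 0.32, VEGFA at 0.32, SQSTM1 at 0.26, WARS1 at 0.24 and NEAT1 at 0.24. The ones with a lower change with AgNPs were GDF15 at -0.77, H2BC14 at -0.51, H2BC7 at -0.49, H2BC17 at -0.35, HOXB13 at -0.25, MKI67 at -0.21 and CCND1 at -0.18.

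For the other 19 genes the call was lost without at least 1 library. Positive differences were 0.29 for CCN1, 0.20 for E2F7, 0.21 for MAP1LC3B, 0.21 for SARS1, 0.22 for TNFRSF10B, 0.27 for HMOX1, 0.28 for TFE3, 0.39 for HSPB8, 0.44 for EGLN3, 0.45 for DUSP1, 0.48 for ANGPTL4 and 0.55 for PANX2. Negative differences were -0.91 for FOS, -0.54 for GPRASP1, -0.36 for H2AC4, -0.27 for H4C14, -0.23 for H2AC11, -0.21 for CENPF and -0.20 for TOP2A. FOS lost its call in 9 of the 12 fits that left out a library, with adjusted p of 0.0564 to 0.149, and H2AC4 lost it without COM replicate 1 or 2, with adjusted p of 0.0508 to 0.0665. With the replicate number as a block the adjusted p was 0.052 for CCN1, 0.0549 for GPRASP1, 0.0582 for H2AC11 and 0.0646 for MAP1LC3B. EGLN3 lost it without AgNPs replicate 2 alone (adjusted p = 0.0544).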

How the results depend on the processing

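The number of genes called in COM against AgNPs stayed within 1.5 times of 4369 in all 21 alternatives, and so did the number called lower. The number called higher was 1288 with DESeq2 against 1973. Counts at 2-fold depended most on the processing. Genes at least 2-fold higher, 144 in the main test, were 94 in the fit of 6 libraries, 90 with a filter of 1 CPM, 85 on RefSeq rows only, 78 with thinned counts, 32 with DESeq2 and 11 with limma on FPKM. Genes at least 2-fold lower, 27 in the main test, were 42 with no filter, 17 with a filter of 1 CPM, 16 in the fit of 6 libraries, 14 on RefSeq rows only, 13 with thinned counts, 5 with DESeq2 and 1 with limma on FPKM. Genes with a called interaction, 221 in the main test, were 134 with thinned counts, 54 with limma on FPKM and 115 to 269 with 1 library left out. The cause of these differences was not tested. Of 180 named genes, 146 kept their side of the threshold and direction under every alternative, and of 35 interaction genes 10 did. Replicate numbers are shared across groups in the labels, and whether they mark pairs is not settled. Deviations of AgNPs and COM libraries with the same number correlated at 0.0142 to 0.0296 over all 19986 genes, and at 0.131 to 0.202 over the 11425 genes with an average of at least 3 log2 CPM, where pairs with different numbers ran from -0.217 to 0.0886. With the replicate block 4224 genes were called and the interaction passed for 176. The block ended no call of COM against AgNPs among the named genes, and ended the interaction calls of CCN1, GPRASP1, H2AC11 and MAP1LC3B. Values below the limit of 3 counts cannot be told from 0.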
